A study of Drosophila melanogaster with 18 samples.

Results

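The genes described are the structural cuticle protein families of Drosophila melanogaster: the Cpr genes, the Tweedle (Twdl) genes, the larval cuticle protein (Lcp) genes, the Ccp84 cluster and Acp1. Members were the genes for which a probe set carried exactly 1 symbol of these families, and where a gene had several such probe sets the brightest on average stood for it. The rule gave 88 genes of the 10844 that the array names singly, made up of 58 Cpr, 20 Twdl, 5 Lcp and 4 Ccp84 genes and Acp1. Of these, 71 passed the filter on low intensities and were tested: 45 Cpr, 16 Twdl, 5 Lcp and 4 Ccp84 genes and Acp1.

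The insect cuticle is a layered extracellular matrix that epidermal cells secrete at their apical side, made of chitin fibres and of proteins that bind them. Cpr, Lcp and Ccp84 proteins carry the Rebers-Riddiford domain, a chitin-binding fold, and Tweedle proteins form a separate insect family first known from mutants with an altered body shape. Acp1, adult cuticle protein 1, is a secreted protein of the adult cuticle. Chitin deacetylases and Obstructor proteins organise the chitin, and catecholamine-derived quinones then tan and harden the layer. In the head the cuticle also covers the antennae and mouthparts and forms the corneal lenses of the eye.

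The flies were wild-type Canton-S, 2 to 5 days old by the labels, and each of 18 samples pooled about 60 whole heads. Naive flies were kept for 50 min in humidified air alone. The single-exposure group then had ethanol vapor (50%) for 40 min once, and the five-exposure group had it 5 times. Each group had 6 samples that the titles name as biological replicates, and the series concerns fast and chronic ethanol tolerance. Neither the flies' sex nor the interval between exposures is stated in the labels, and no air-only group as long as the 1 or the 5 exposures was analysed here. All groups carried the same genotype.

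The arrays were of similar scale, with medians from 125.4 to 129.3. Naive replicate 5 correlated least with the rest of its group (mean 0.982, against 0.988 to 0.992 for the other 17 arrays). Titles number the arrays consecutively by group, so array order and group cannot be told apart. Photoreceptor markers were bright in every group (summed intensity of 6 markers from 17710 to 20970), as heads should show, while the neuronal marker elav lay under the filter (mean intensity 81.2). The head sample holds many cell types, and fewer cuticle-secreting cells and less RNA per such cell cannot be told apart. Levels of different probe sets are not on a common scale, so only differences within a gene are compared.

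After 5 exposures, 12 of the 71 tested cuticle genes were lower than in naive heads and 0 were higher. That is 16.9% of the members, where 3.86% of all 9311 probe sets tested were called lower and 2.48% higher in this comparison (limma, Benjamini-Hochberg adjusted p under 0.05 over all probe sets). The families were chosen with earlier results of these data known, so these shares are a description only. At an unadjusted p under 0.05, 22 members were lower and 0 higher. Counts at this unadjusted threshold, here and below, were not made over all probe sets tested. The genes called were Acp1, 10 Cpr genes and TwdlM. The median member differed from naive by a log2 change of -0.06, against 0.01 over all probe sets tested. Of the 71 members, 48 had a fold below 1 and 23 above, where the share of all probe sets tested below 1 was 46.6%. In 8 members every five-exposure array lay under every naive array, a pattern found for 2.09% of all probe sets tested.

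**Figure D1:**
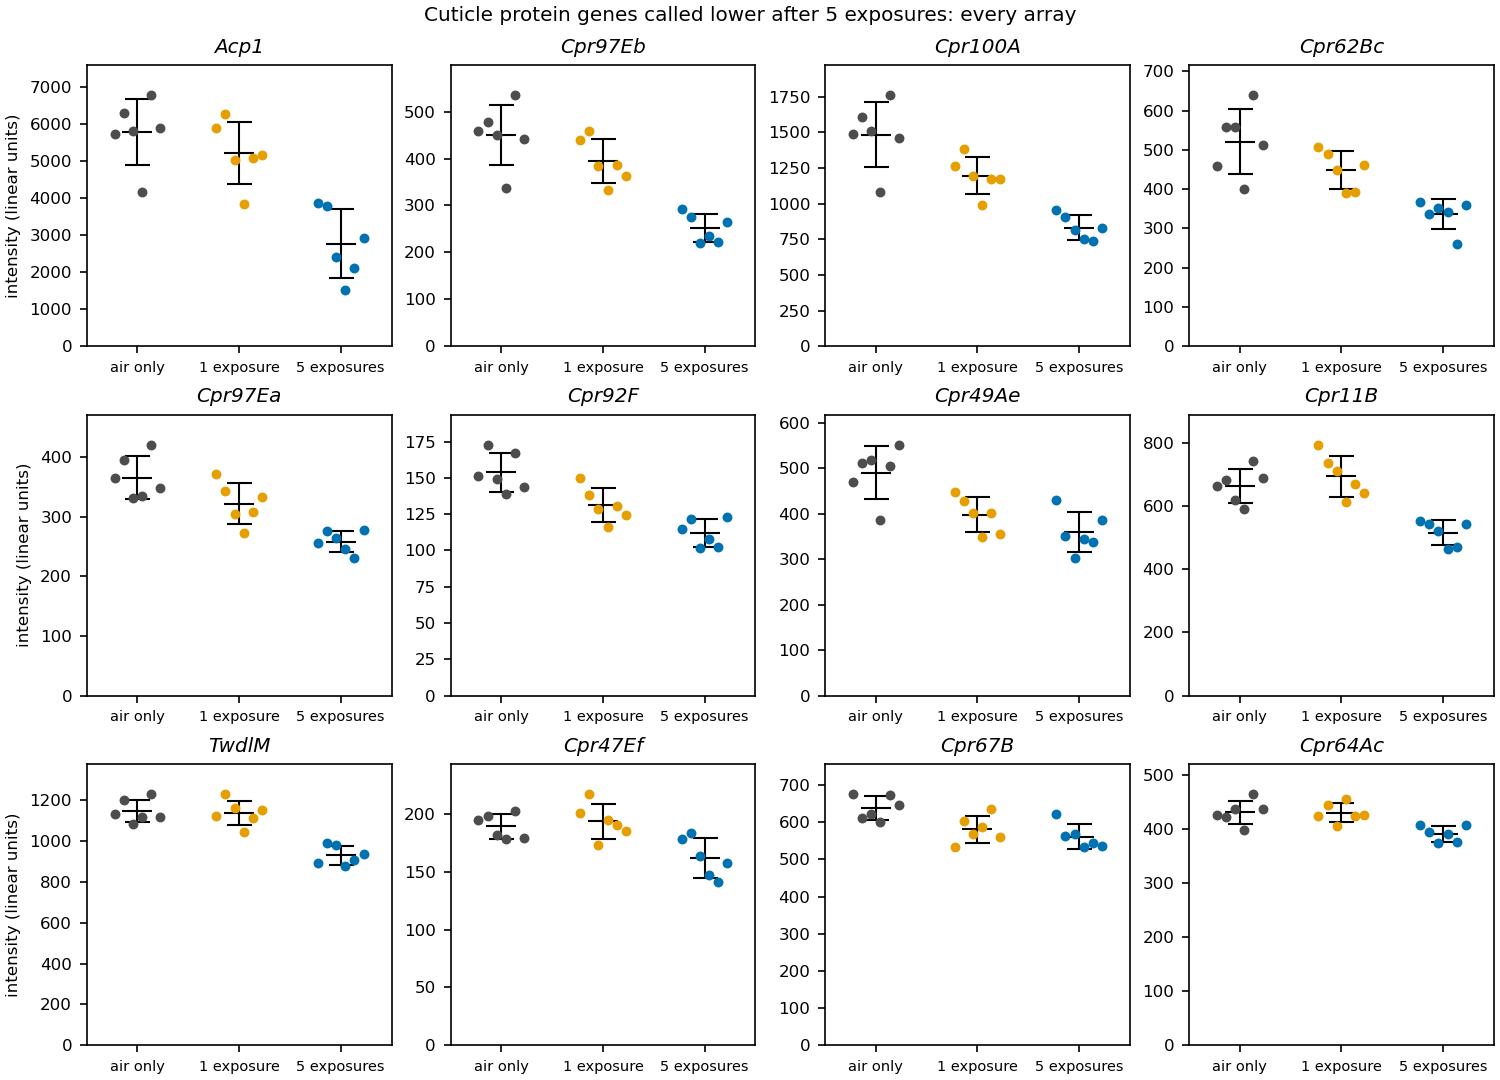
Deposited intensity (linear scale, arbitrary units, axes from 0) of the 12 cuticle genes called lower after 5 exposures, 1 panel per gene. Each point is 1 array and bars are the mean of 6 arrays with its SD. Acp1 lay between 4156 and 6770 in naive heads and between 1527 and 3854 after 5 exposures.

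Acp1 fell furthest of the members. Its intensity in naive heads ran from 4156 to 6770 with a median of 5844, and after 1 exposure from 3830 to 6254 with a median of 5120. After 5 exposures it ran from 1527 to 3854 with a median of 2662. All 6 five-exposure arrays were under all 6 naive arrays, and the highest of them just passed the lowest single-exposure array. The fold after 5 exposures against naive was 0.461 (95% interval 0.357 to 0.595, limma adjusted p = 0.000317), and against 1 exposure it was 0.512 (0.396 to 0.661, limma adjusted p = 0.000876). Those comparisons share the five-exposure arrays. After 1 exposure Acp1 was at a fold of 0.900 (0.697 to 1.16, limma adjusted p = 0.781), so a change of that size was not resolved.

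Cpr97Eb and Cpr100A had the smallest p-values of the members. Both encode proteins of the Rebers-Riddiford family. Cpr97Eb had intensities of 338 to 535 (median 456) in naive heads, 332 to 460 (median 386) after 1 exposure and 221 to 292 (median 250.3) after 5. Its fold was 0.561 against naive (0.488 to 0.645, limma adjusted p = 1.15e-05) and 0.639 against 1 exposure (limma adjusted p = 9.64e-05). The five-exposure arrays overlapped neither other group. Cpr100A had intensities of 1081 to 1760 (median 1499) in naive heads, 989 to 1387 (median 1185) after 1 exposure and 735 to 959 (median 821) after 5. Its fold was 0.564 against naive (0.492 to 0.648, limma adjusted p = 1.15e-05) and 0.696 against 1 exposure (limma adjusted p = 0.000842), again with no overlap.

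Cpr62Bc, another gene of this family, stood in the same order. Its naive arrays read 401 to 639 (median 535), its single-exposure arrays 389 to 506 (median 455) and its five-exposure arrays 261 to 368 (median 347). The fold was 0.649 against naive (limma adjusted p = 0.000324) and 0.750 against 1 exposure (limma adjusted p = 0.00936), and the five-exposure arrays lay below both other groups. The lowest reading, 261, came from five-exposure replicate 5, with the next array at 336. Cpr62Bb, its neighbour in the genome, was measured at a log2 change of -0.18 with a limma adjusted p of 0.141, which was 0.0397 without naive replicate 4.

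Cpr97Ea lies directly beside Cpr97Eb in gene order, and both fell. Cpr97Ea read 332 to 421 (median 357) in naive heads, 272 to 373 (median 320.5) after 1 exposure and 230.3 to 278 (median 260.1) after 5. The fold was 0.708 against naive (limma adjusted p = 0.000104), with no overlap, and 0.804 against 1 exposure (limma adjusted p = 0.00596), with overlapping arrays. Cpr92F was dimmer, at 139 to 173 (median 150.1) in naive heads, 116 to 150.1 (median 130) after 1 exposure and 102 to 123 (median 111) after 5. Its fold was 0.728 against naive (limma adjusted p = 0.000128), without overlap. Against 1 exposure the fold of Cpr92F was 0.852 (limma adjusted p = 0.0326), a call that went when single-exposure replicate 1, 2 or 5 or five-exposure replicate 3, 4 or 5 was left out (limma adjusted p from 0.0557 to 0.0903).

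For Cpr11B and TwdlM the single-exposure folds against naive were near 1, at 1.04 and 0.991. Those of Cpr47Ef (1.02) and Cpr64Ac (0.999), described below, were also near 1. No member was called after 1 exposure, and whether these genes had another course was not tested. Cpr11B read 590 to 743 (median 671) in naive heads, 613 to 793 (median 690) after 1 exposure and 463 to 551 (median 531) after 5. Its fold was 0.776 against naive (limma adjusted p = 0.001) and 0.744 against 1 exposure (limma adjusted p = 0.000134), with no overlap in either. Cpr11A, beside it in gene order, was not called. TwdlM, the one Tweedle gene called, read 1085 to 1229 (median 1126) in naive heads, 1045 to 1229 (median 1137) after 1 exposure and 876 to 989 (median 922) after 5. Its fold was 0.811 against naive (limma adjusted p = 0.00016) and 0.818 against 1 exposure (limma adjusted p = 0.000149), with no overlap. A dimmer probe set of TwdlM did not show this: its log2 change was -0.07 against naive (limma adjusted p = 0.582) and -0.08 against 1 exposure (limma adjusted p = 0.459). Which of the probe sets represents the gene was not tested.

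For the other 4 Cpr genes called, the five-exposure arrays overlapped the naive arrays. Cpr49Ae read 386 to 552 (median 508) in naive heads, 349.5 to 449 (median 403) after 1 exposure and 303 to 430.4 (median 348) after 5, a fold of 0.732 against naive (limma adjusted p = 0.00181). Cpr67B read 601 to 675 (median 634) in naive heads, 533 to 636 (median 577) after 1 exposure and 532.5 to 623 (median 553) after 5, a fold of 0.879 (limma adjusted p = 0.0213). For Cpr49Ae and Cpr67B the single-exposure medians already lay most of the way to the five-exposure medians, and against 1 exposure the limma adjusted p-values were 0.391 and 0.685. Leaving out naive replicate 1, or five-exposure replicate 4 or 6, ended the call of Cpr67B (limma adjusted p from 0.055 to 0.0623).

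Cpr47Ef read 178 to 202 (median 188) in naive heads, 173 to 217 (median 193) after 1 exposure and 141 to 184 (median 161) after 5. Its fold was 0.853 against naive (limma adjusted p = 0.0326) and 0.835 against 1 exposure (limma adjusted p = 0.0108). Leaving out naive replicate 1, 2 or 5, or five-exposure replicate 3, 4, 5 or 6, ended its call against naive (limma adjusted p from 0.0559 to 0.0953). Cpr64Ac was the weakest call, at 397 to 464 (median 431), 405 to 456 (median 425) and 373 to 407 (median 392) in naive, single-exposure and five-exposure heads. Its fold was 0.909 against naive (limma adjusted p = 0.0493) and 0.910 against 1 exposure (limma adjusted p = 0.042). Its call against naive ended on leaving out any of naive replicates 1, 2, 3, 5 and 6, single-exposure replicates 1, 2, 5 and 6, or five-exposure replicates 2 to 5 (limma adjusted p from 0.0515 to 0.121). Its call against 1 exposure ended on leaving out any of naive replicates 1, 2, 3 and 6, single-exposure replicates 1, 2, 4, 5 and 6, or five-exposure replicates 2 to 5 (limma adjusted p from 0.0504 to 0.106).

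**Figure D2:**
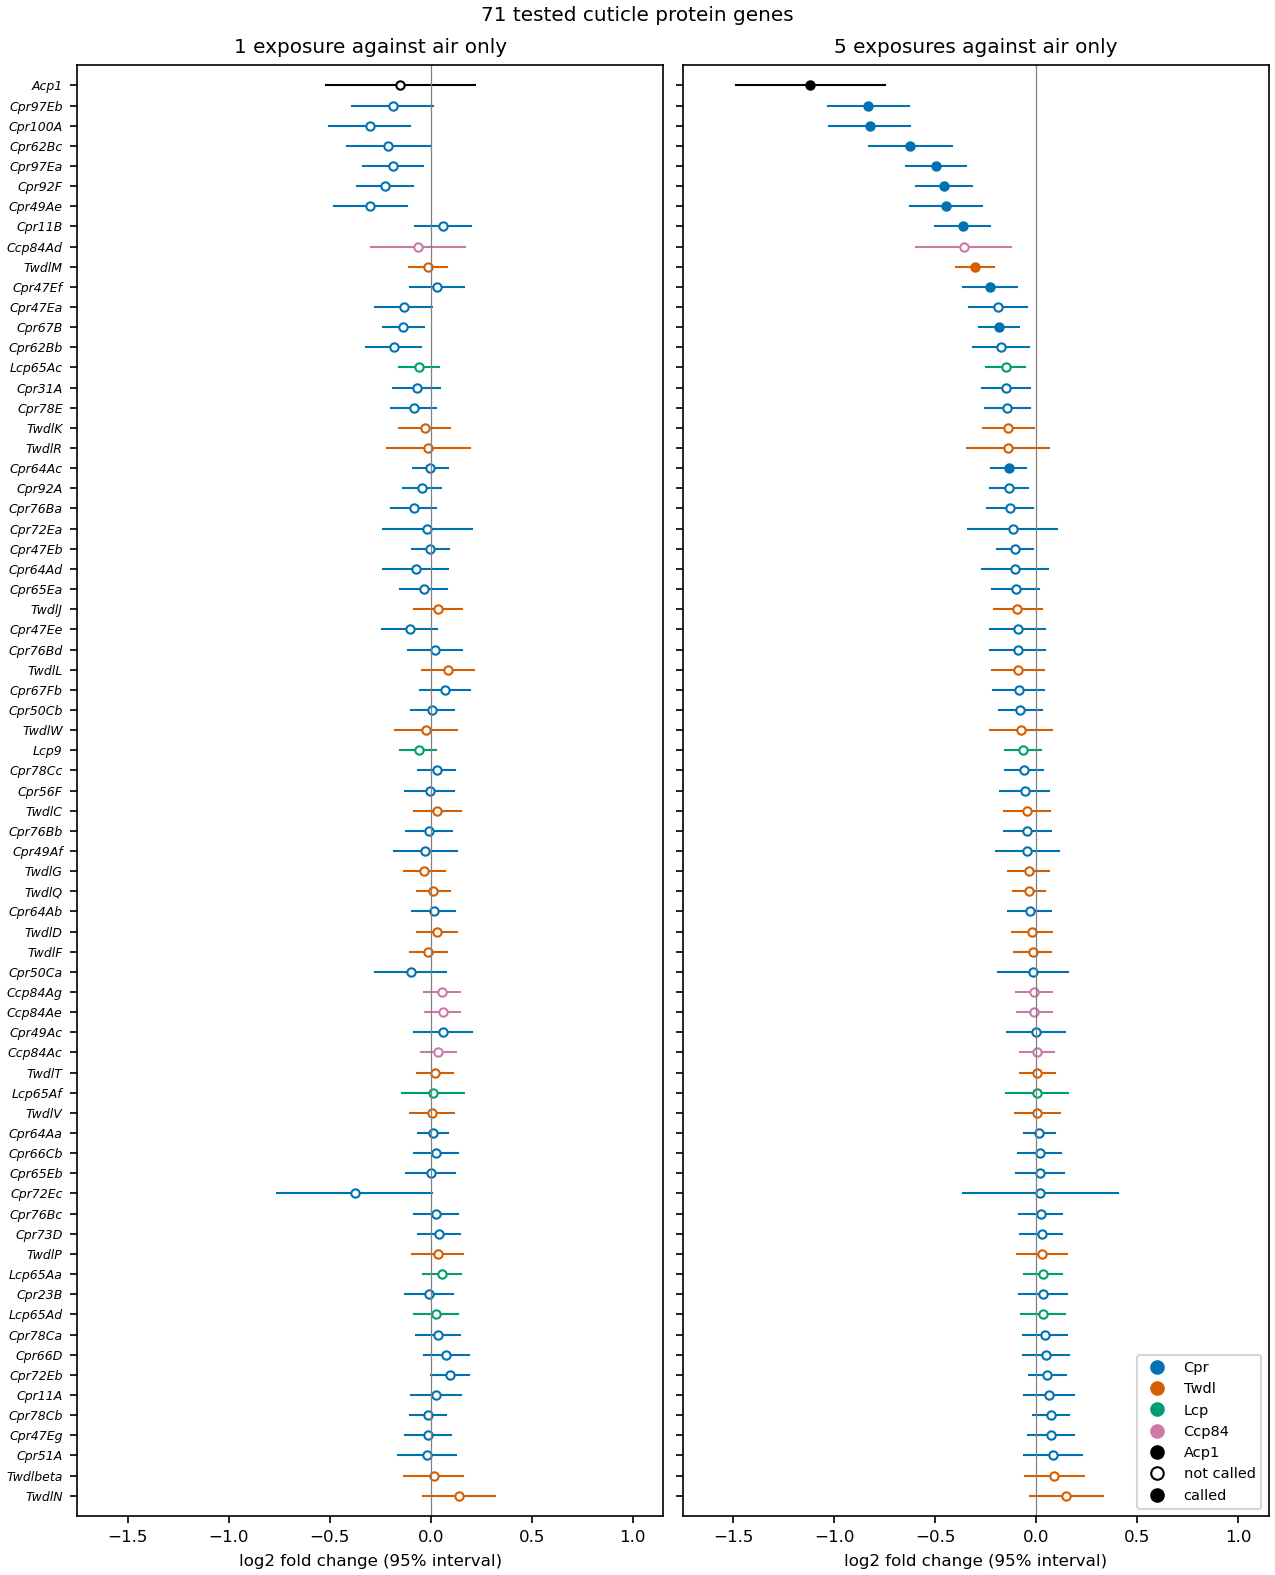
Log2 difference in deposited intensity against naive after 1 exposure (left) and after 5 exposures (right), 1 point per tested cuticle gene (71 genes). Lines are 95% confidence intervals from the limma model, and filled points passed the adjusted threshold. Genes are ordered by the difference after 5 exposures and coloured by family. After 5 exposures values ran from -1.12 for Acp1 to 0.15 for TwdlN.

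The calls after 5 exposures against naive were also counted by family, and the difference between families was not tested. Cpr genes gave 10 of 45 tested (22.2%), Twdl genes 1 of 16 (6.25%), Lcp genes 0 of 5 and Ccp84 genes 0 of 4. Of all probe sets tested, 3.86% were called lower in this comparison. The Lcp and Ccp84 families have too few tested genes for a count of 0 to be read as a difference. Among the Lcp and Ccp84 genes, limma gave 1 gene in each family with an unadjusted p under 0.05. The median log2 change after 5 exposures was -0.09 for Cpr, -0.04 for Twdl, 0.00 for Lcp and -0.01 for Ccp84. At the other end, Cpr51A had the highest fold of the Cpr genes, 1.06 (0.960 to 1.17, limma adjusted p = 0.622), and TwdlN that of the Tweedle genes, 1.11 (0.977 to 1.25, limma adjusted p = 0.426).

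Ccp84Ad, from the cluster of cuticle genes at cytological region 84A, read 747 to 1264 (median 926) in naive heads, 761 to 1185 (median 853) after 1 exposure and 648 to 865 (median 705) after 5. Its fold of 0.778 against naive (0.662 to 0.915) had a limma adjusted p of 0.0601, and the arrays overlapped. Without naive replicate 1 or 4, single-exposure replicate 2 or five-exposure replicate 1 it passed (limma adjusted p from 0.0219 to 0.0446). A probe set shared by Ccp84Aa and Ccp84Ab, which was not counted among the members, had a log2 change of -0.50 with a limma adjusted p of 0.182. Ccp84Ac, the highest of the cluster, had a log2 change of 0.00 (limma adjusted p = 0.987).

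Among the larval cuticle protein genes Lcp65Ac was lowest, with a fold of 0.899 (0.841 to 0.962, limma adjusted p = 0.0572). It read 137 to 169 (median 155) in naive heads, 136 to 155 (median 148) after 1 exposure and 131 to 146 (median 137) after 5, so the groups overlapped. Lcp65Ac passed without naive replicate 4 (limma adjusted p = 0.0103) or five-exposure replicate 1 (limma adjusted p = 0.044). Lcp65Ad was highest, at 1.02 (0.949 to 1.10, limma adjusted p = 0.837). A probe set shared by the Lcp65Ag copies, also outside the members, was higher after 1 exposure (log2 change 0.26, limma adjusted p = 0.00551) and lower after 5 exposures than after 1 (-0.22, limma adjusted p = 0.015).

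The 59 tested members called in no comparison had log2 changes after 5 exposures between those of Ccp84Ad (-0.36) and TwdlN (0.15). Cpr72Ec, which encodes a protein of the corneal lens, varied widely within each group. It read 684 to 1313 in naive heads, 555 to 1082 after 1 exposure and 701 to 1297 after 5. Its log2 change was -0.38 after 1 exposure (limma adjusted p = 0.35) and 0.02 after 5 (limma adjusted p = 0.98). The 17 genes under the filter were Cpr12A, Cpr30B, Cpr35B, Cpr47Ec, Cpr47Ed, Cpr49Ab, Cpr49Ad, Cpr49Ah, Cpr5C, Cpr62Ba, Cpr65Az, Cpr65Ec, Cpr67Fa2, TwdlE, TwdlO, TwdlS and Twdlalpha. Their mean intensities ran from 7.51 to 84.1, and 5 of them were at or under the floor of 57.8 on every array.

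After 1 exposure limma called 0 of the 71 tested members at the adjusted threshold, where 4.42% of all probe sets tested were called in either direction. At an unadjusted p under 0.05 there were 8 members, 7 of them lower. The median log2 change of the members was -0.01, against 0.01 over all probe sets tested. Of the 71 members, 39 had a fold below 1, where the share of all probe sets tested was 42.9%. The closest to the threshold were Cpr49Ae at a fold of 0.813 (0.718 to 0.921, limma adjusted p = 0.0525), Cpr92F at 0.854 (0.776 to 0.940, limma adjusted p = 0.0572) and Cpr100A at 0.811 (0.707 to 0.931, limma adjusted p = 0.0834). For all 3 the single-exposure arrays overlapped the naive arrays. The count depends on single arrays: it was 4 without naive replicate 4, 2 without single-exposure replicate 1 and 1 without five-exposure replicate 1 or 3. Without naive replicate 4 the limma adjusted p was 0.00602 for Cpr49Ae, 0.0331 for Cpr92F, 0.00377 for Cpr100A and 0.0456 for Cpr62Bb.

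The five-exposure arrays were also compared with the single-exposure arrays. Of the 71 tested members, 10 were lower and 0 higher, or 14.1% called lower, where 4.77% of all probe sets tested were lower and 3.74% higher. At an unadjusted p under 0.05 there were 16, of which 15 were lower. The genes were Acp1, 8 Cpr genes and TwdlM, each also called lower against naive. The pair called against naive alone was Cpr49Ae and Cpr67B. The median member had a log2 change of -0.05, against -0.01 over all probe sets tested. A fold below 1 was found for 56 of the 71 members, where the share of all probe sets tested was 55.6%. In 5 of them (Cpr97Eb, Cpr100A, Cpr62Bc, Cpr11B and TwdlM) every five-exposure array lay under every single-exposure array, which 3.01% of all probe sets tested showed. Of the 3 group medians, the five-exposure one was lowest for 44 of the 71 members, a count that was not made over all probe sets tested.

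**Figure D3:**
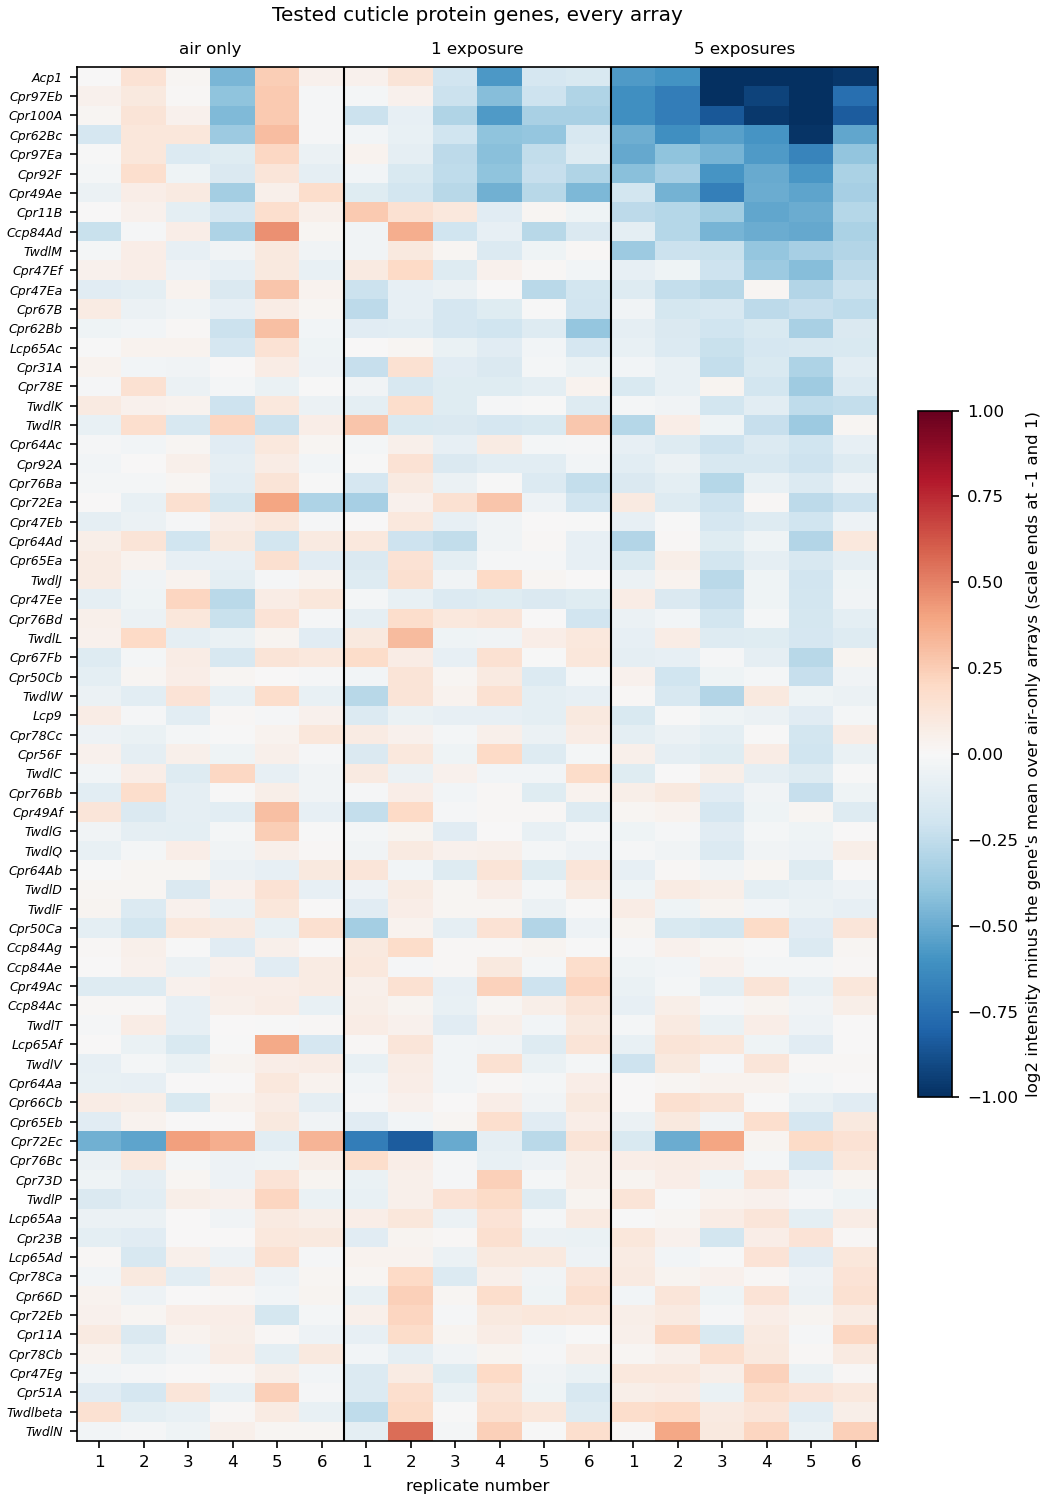
Log2 intensity of each tested cuticle gene (71 rows) on each of the 18 arrays (columns, by group), minus that gene's naive mean; colours are limited to 1 in either direction. Naive replicate 4 is the lowest naive array for 10 of the 12 genes called, and single-exposure replicate 4 the lowest of its group for 9.

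Within the groups the called genes often had their lowest or highest reading on the same array, though not throughout. Naive replicate 4 was the lowest naive array for 10 of the 12, and naive replicate 5 the highest for 9. Single-exposure replicate 4 was the lowest of its group for 9, and five-exposure replicate 1 the highest of its group for 8. The lowest five-exposure array was replicate 3, 4 or 5, for 4 genes each, and single-exposure replicates 1 and 2 were each highest for 5. With group means subtracted, Pearson correlation of the other called genes with Acp1 ran from 0.378 for Cpr64Ac to 0.831 for Cpr100A. Over the 12 genes, the median log2 difference from the naive mean ran from -0.16 to 0.15 on the naive arrays, from -0.40 to -0.02 on the single-exposure arrays and from -0.56 to -0.32 on the five-exposure arrays. Because these 12 were chosen by the same contrast, those medians are a description only. For the 59 members not called, the array medians ran from -0.02 to 0.08, from -0.05 to 0.07 and from -0.11 to 0.01 in the same groups.

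Many cuticle genes lie in clusters, and at the adjusted threshold each cluster with a call had 1, with 1 exception. In RefSeq gene order (Release 6 plus ISO1 MT, used for order only) the exception was Cpr97Ea with Cpr97Eb. Of the run that holds TwdlM, 1 of 9 tested Tweedle genes was called after 5 exposures against naive. The Cpr47E run gave 1 of 5 tested, the Cpr49A run 1 of 3, the Cpr64A run 1 of 4 and the Cpr62B run 1 of 2. Of all tested members 16.9% were called. These counts depend on the threshold and the arrays. Without replicate 4 of all groups Cpr47Ea passed (limma adjusted p = 0.0251, against 0.124 with all arrays) and Cpr47Ef did not (0.0929). Cpr62Bb passed without naive replicate 4 (limma adjusted p = 0.0397). No member was called in the Lcp65A, Ccp84A, Cpr65E, Cpr72E, Cpr76B and Cpr78C runs.

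Acp1 has no other member beside it, but genes close to it had similar values. CG7214 and CG7203 lie within 3 protein-coding genes of Acp1, and no role is given for them here. CG7214 read 2484 to 4348 (median 3847) in naive heads, 2467 to 3752 (median 3284) after 1 exposure and 875 to 2791 (median 1631) after 5. Its log2 change after 5 exposures was -1.15 (limma adjusted p = 0.00117). CG7203 read 5662 to 8839 (median 7812), 5126 to 7967 (median 6973) and 2609 to 5338 (median 3621) in the same groups, a log2 change of -1.02 (limma adjusted p = 0.000101). ATPsynGL, named for a subunit of ATP synthase and placed between them, was not called: its arrays read 120.0 to 148, 124.9 to 149.9 and 118 to 143 in the same groups, with a log2 change of -0.05 (limma adjusted p = 0.793).

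**Figure D4:**
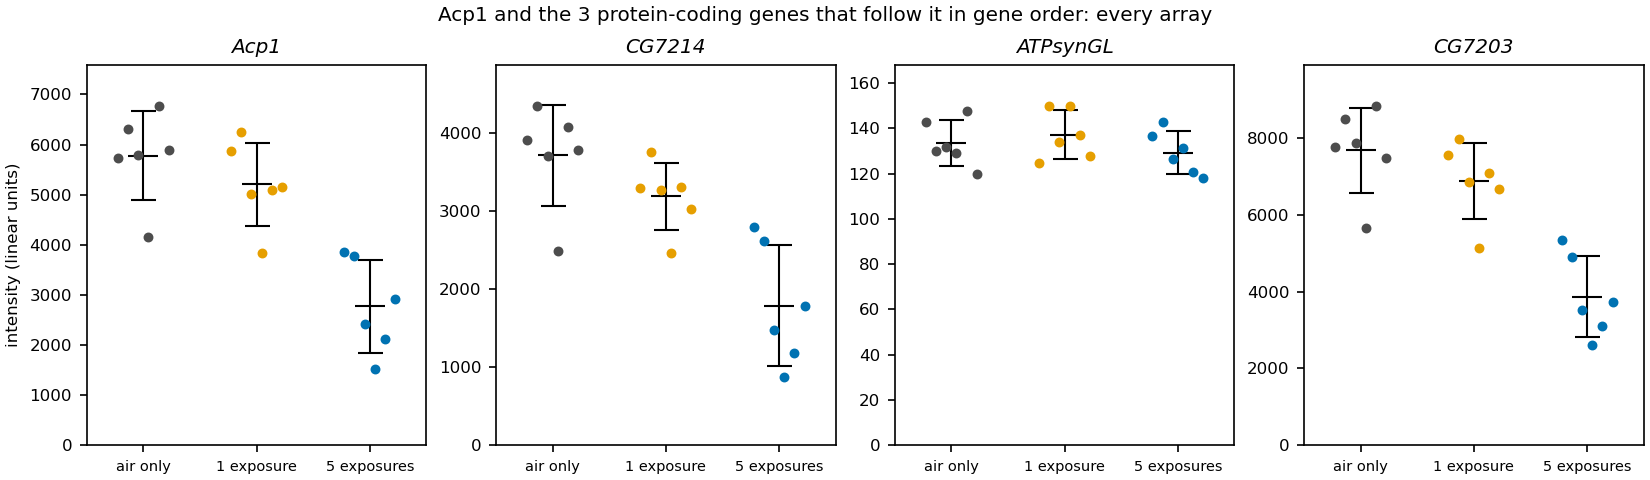
Deposited intensity (linear scale, arbitrary units, axes from 0) of Acp1, CG7214, ATPsynGL and CG7203, which lie side by side in gene order. Each panel is 1 gene, each point is 1 array, and bars are the group mean with its SD. Acp1, CG7214 and CG7203 had log2 changes of -1.12, -1.15 and -1.02 after 5 exposures against naive, and ATPsynGL had -0.05.

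The same window, chosen after the values around Acp1 were seen, was applied to all 12 called members. It held 27 tested genes that are not cuticle family members, of which 6 were lower after 5 exposures and 0 higher. Besides CG7214 and CG7203 these were CG4000 (log2 change -0.60, limma adjusted p = 0.00145) and Nep4, a neprilysin-family metallopeptidase (-0.18, limma adjusted p = 0.0322), on either side of Cpr92F. The others were CG14259 (-0.33, limma adjusted p = 0.0349) near Cpr97Ea and Cpr97Eb, and GV1 (-0.25, limma adjusted p = 0.0123) near Cpr62Bc. That is 22.2% of the tested neighbours, a share that includes CG7214 and CG7203, whose values prompted the window. Of 87 tested genes that lay only beside members not called, 5 were lower (5.75%), where 3.86% of all probe sets tested were lower. The difference between these shares was not tested.

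The genes whose pattern was most like that of Acp1 were found by Pearson correlation of log2 intensity over the 18 arrays. CG7203 (0.992) and CG7214 (0.988) came first, then CG8736 (0.976), CG4000 (0.976) and CG11458 (0.971). After each group's mean was subtracted the same 5 gave 0.978, 0.975, 0.933, 0.940 and 0.911. These arrays share the group differences and the array-to-array shifts described above, so the values are descriptive. Of the members, Cpr97Eb (0.941, and 0.804 within groups), Cpr100A (0.929 and 0.831) and Cpr11B (0.919 and 0.800) were most like Acp1. The mean standardized level of all 71 tested members was followed most closely by lectin-46Ca (0.924), CG14854 (0.874), rdx (0.867), GILT2 (0.861) and CG8170 (0.853), none of which was called after 5 exposures against naive.

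Cuticle proteins act together with chitin and with the enzymes that arrange and tan it, and these partners were followed from lists. The lists were chosen with earlier results of these data known, so the shares called in them are a description only. Of 10 tested genes of chitin matrix organisation, 6 were lower after 5 exposures and 0 higher. Of all probe sets tested, 3.86% were lower and 2.48% higher in this comparison. The median log2 change of the 10 genes was -0.33. Gasp, a secreted chitin-binding protein, read 429 to 786 (median 696) in naive heads, 363 to 645 (median 537) after 1 exposure and 268 to 447 (median 301) after 5. Its log2 change was -1.06 (limma adjusted p = 6.13e-05), although naive replicate 4 (429) lay below the highest five-exposure array (447). The chitin deacetylase verm read 262 to 428 (median 366) in naive heads, 262 to 405 (median 331) after 1 exposure and 161 to 219 (median 178) after 5, a change of -0.99 (limma adjusted p = 7.66e-06). Its five-exposure arrays overlapped neither other group.

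The remaining 4 of this list were obst-A, an Obstructor chitin-binding protein (log2 change -0.77, limma adjusted p = 6.1e-05), the chitin deacetylases serp (-0.45, limma adjusted p = 0.000772) and Cda5 (-0.41, limma adjusted p = 0.000517), and obst-B (-0.25, limma adjusted p = 0.0116). Against 1 exposure 5 of the 10 were lower, beside 4.77% of all probe sets tested. These 5 calls were all of the 6 except Cda5. That of obst-B (limma adjusted p = 0.0417) ended on leaving out any 1 of 11 arrays: naive replicate 3 or 6, single-exposure replicate 1, 2, 3, 4 or 5, or five-exposure replicate 2, 3, 4 or 5 (limma adjusted p from 0.0504 to 0.113). After 1 exposure limma called 0 of the 10, with 3 at an unadjusted p under 0.05, and 2 without naive replicate 4.

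Of 5 tested genes of chitin synthesis, mmy alone, which makes the activated sugar for chitin, was lower after 5 exposures (log2 change -0.25, limma adjusted p = 0.000183). Against 1 exposure the five-exposure heads had lower mmy (-0.20, limma adjusted p = 0.00124) and reb, needed for chitin deposition (-0.17, limma adjusted p = 0.0492), the latter lost without any 1 of 14 arrays (limma adjusted p from 0.0504 to 0.133). These were naive replicate 1, 2, 4 or 6, single-exposure replicate 1, 2, 3, 5 or 6, and five-exposure replicate 1, 3, 4, 5 or 6. The list of chitin breakdown had 13 tested genes, for chitinases, chitinase-like proteins and Hexo2. Of these the chitinase gene Cht2 was lower (-0.22, limma adjusted p = 0.0207) and the chitinase-like growth factor gene Idgf6 higher (0.38, limma adjusted p = 0.0048) after 5 exposures. Leaving out naive replicate 2, 3 or 5, or five-exposure replicate 3, ended the call of Cht2 (limma adjusted p from 0.0505 to 0.0639). Idgf1, of the same chitinase-like family, was higher after 1 exposure (0.74, limma adjusted p = 0.000164) and at 0.05 after 5 (limma adjusted p = 0.893).

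Cuticle and lens proteins outside the member families gave 3 of 9 lower after 5 exposures, beside 3.86% of all probe sets tested. Vajk3, of a family of valine-rich cuticle proteins, read 728 to 1327 (median 1014) in naive heads, 592.5 to 897 (median 806) after 1 exposure and 432 to 681 (median 548) after 5. Its log2 change was -0.87 (limma adjusted p = 0.000122), with no overlap between five-exposure and naive arrays. Vajk2 changed by -0.54 (limma adjusted p = 0.000292) and retinin, a corneal lens protein, by -0.25 (limma adjusted p = 0.0103).

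Of 14 tested tanning and pigmentation genes, 4 were already lower after 1 exposure. In that comparison 4.42% of all probe sets tested were called in either direction. The 4 included ple, the tyrosine hydroxylase gene (log2 change -0.45, limma adjusted p = 0.00159), and speck, an arylalkylamine N-acetyltransferase gene (-0.43, limma adjusted p = 0.0066). The others were Pu, the GTP cyclohydrolase gene (-0.39, limma adjusted p = 0.0067), and t, which encodes the tan hydrolase (-0.25, limma adjusted p = 0.0475). The t call was lost without any 1 of 12 arrays (limma adjusted p from 0.0557 to 0.122): naive replicate 1, 3, 4, 5 or 6, single-exposure replicate 1, 2, 3 or 5, and five-exposure replicate 1, 4 or 6. After 5 exposures 6 of the 14 were lower and 0 higher, beside 3.86% and 2.48% of all probe sets tested. They were the same 4 with yellow-d2 (limma adjusted p = 0.00018) and yellow-e (-0.47, limma adjusted p = 0.0113). There t (-0.26, limma adjusted p = 0.0321) was no longer called when naive replicate 3 or 6, or five-exposure replicate 1, 2, 3 or 4, was left out (limma adjusted p from 0.0519 to 0.0899). The values of ple were 474 to 786 (median 613) in naive heads, 407 to 494 (median 445) after 1 exposure and 395 to 470.5 (median 432) after 5. The mean intensity of yellow-d2 was 115 in naive heads and 65.0 after 5 exposures, where 2 of 6 arrays were under the floor, so its fitted change depends on the floor. Against 1 exposure, five-exposure heads had yellow-d2 lower (limma adjusted p = 0.00371) and yellow-f2 higher (0.20, limma adjusted p = 0.0131).

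The zona pellucida proteins of the apical matrix gave 0 of 5 called after 5 exposures (limma, 3 at an unadjusted p under 0.05). The gene cyr was higher after 1 exposure (log2 change 0.27, limma adjusted p = 0.00618), and after 5 exposures against 1 both cyr (-0.24, limma adjusted p = 0.00955) and pio (-0.28, limma adjusted p = 0.0222) were lower. For pio this ended on leaving out single-exposure replicate 1 or five-exposure replicate 2 or 4 (limma adjusted p from 0.0518 to 0.0629). Of 7 tested regulators of cuticle genes, among them the ecdysone receptor partners EcR and usp, limma called 0 in each comparison, with 0 at an unadjusted p under 0.05. Their log2 changes after 5 exposures ran from -0.05 to 0.07.

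**Figure D5:**
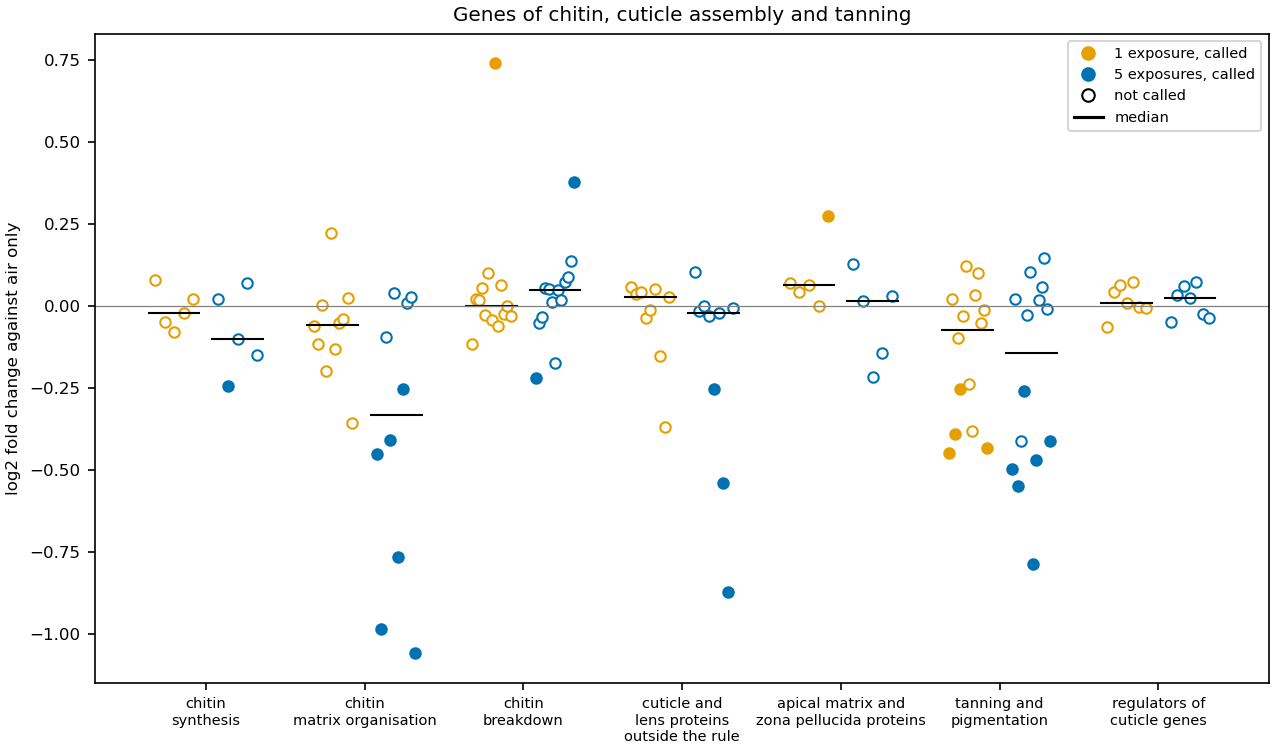
Log2 difference against naive after 1 exposure and after 5 exposures for tested genes of each partner list. Each gene has 1 point per comparison, lines are the list's medians, and filled points passed the adjusted threshold. After 5 exposures chitin matrix organisation has a median of -0.33, tanning -0.14 and regulators 0.02.

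Markers of other tissues were followed too, and those of muscle were lower. The marker lists were likewise chosen with earlier results known, so their shares are a description only. Of 15 tested muscle genes, 10 were lower after 5 exposures and 0 higher, with a median log2 change of -0.35. In this comparison 3.86% of all probe sets tested were lower and 2.48% higher, shares that also stand beside the marker counts below. The lowest changes of the muscle genes were Prm, paramyosin (-0.84, limma adjusted p = 3.36e-05), and Mlc1, a myosin light chain (-0.76, limma adjusted p = 0.000262). Summed over 16 muscle genes the intensity ran from 15840 to 23330 in naive heads, from 16950 to 20400 after 1 exposure and from 12450 to 16920 after 5. Naive replicate 4, the lowest naive array for most called cuticle genes, had a median muscle difference of -0.37 from the naive mean. Without naive replicate 4 the members called lower numbered 15.

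Of 8 tested haemocyte genes 3 were lower, among them the phagocytosis receptor gene NimC4 (limma adjusted p = 1.38e-05), and the summed level of 12 such genes ran from 2552 to 3045 in naive heads, 2509 to 2889 after 1 exposure and 2417 to 2680 after 5. The mean intensity of NimC4 fell from 126 in naive heads to 55.8 after 5 exposures, where 3 of 6 arrays were under the floor, so its fitted change depends on the floor. Of 2 tested tracheal markers uif was lower (-0.39, limma adjusted p = 0.00168) and vvl was at -0.04 (limma adjusted p = 0.845), while btl and bs lay under the filter. Of 9 fat body genes 2 were higher and 0 lower. Median log2 changes after 5 exposures were -0.02 for haemocyte, 0.12 for fat body, -0.02 for neuronal, -0.075 for glial and -0.04 for photoreceptor genes. Of 6 photoreceptor genes 1 was lower and 1 higher, and limma called 0 of 5 neuronal and 0 of 5 glial genes, with 1 and 2 at an unadjusted p under 0.05. No summed marker level was at 0 in any group. The part of muscle, haemocyte or tracheal content in the cuticle gene result was not tested.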

How the data were processed

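Biotin-labelled cRNA from 6 µg of total RNA was hybridised to one-colour Affymetrix arrays, per the labels. The authors deposited 1 linear intensity per probe set and array, already summarised and scaled between arrays; the software that did so is not stated in the labels. Of 14010 probe sets, 44 were controls, 12443 had a single gene symbol, 327 several and 1196 none, from the platform annotation updated through RefSeq gene identifiers. Intensities under the pooled 20th percentile (57.8) were raised to it, log2 was taken, and controls and the lowest 1/3 by mean log2 value (under 6.42, an intensity of 85.9) were left out, leaving 9311. A linear model with 1 mean per group took in all 18 arrays (R 4.3.3, limma 3.58.1, lmFit then eBayes, 15 residual degrees of freedom), two-sided, with Benjamini-Hochberg adjustment over all probe sets and calls at 0.05. Folds are 2 to the power of the log2 difference. The number of arrays limits the precision.

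The members and lists were chosen with earlier results of these data known. Named were every called member, the highest and lowest fold of each family, members whose probe sets disagreed, called genes of the partner lists, and the 5 genes nearest in pattern; Cpr72Ec and the genes beside members were chosen after their values were seen. Probe sets shared by several family symbols (7) were left out. The labels do not tie equal replicate numbers together, and the model had no block. Tables and plots used pandas 2.3.3, matplotlib 3.10.9 and numpy 2.4.6 under Python 3.11.15. The alternatives tried were: each array left out, array weights, the replicate number as a block, median centring, quantile normalization, a stricter filter or none, a pseudocount of 32 or a lower floor (24.9) for dim values, a trended and robust prior, a fit of the compared groups alone, and the dimmest probe set of each gene. Leaving out replicate 4 of all groups, or naive replicates 4 and 5, was chosen after seeing the data.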

Additional observations from a re-analysis of the deposited data

Results flagged for a closer look

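Of 123 groups of 6 arrays looked at, for 41 called or named genes, 6 had 1 array set apart from the others by a gap above Dixon's 95% critical value for the share of the group's range, and chance gives about 1 in 20. Naive replicate 4 was low for Acp1 (intensity 4156, next 5738), for obst-A (310.5, next 403) and for Gasp (429, next 664). Gasp was high in five-exposure replicate 1 (447, next 323). Cpr62Bc was low in five-exposure replicate 5 (261, next 336), and obst-B was low in single-exposure replicate 6 (241, next 262).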

How the results depend on the processing

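Of the named cuticle genes, none called changed direction under any alternative, while 9 comparisons of genes not called, with log2 changes near 0, changed sign under at least 1. The cuticle genes called lower after 5 exposures against naive (12) numbered 9 to 15 with 1 array left out, 9 without five-exposure replicate 4 and 15 without naive replicate 4, and 11 to 13 under the other alternatives. Against 1 exposure (10) they numbered 8 to 10 and 8 to 11. Acp1, Cpr97Eb, Cpr100A, Cpr62Bc, Cpr97Ea and Cpr11B kept both calls in all 30 alternatives. After 1 exposure against naive the 0 called became 2 with quantile normalization, 2 with median centring, 1 with the stricter filter, 1 with the pseudocount, 3 with array weights, 4 with the replicate block, 2 without replicate 4 of all groups, 2 without naive replicates 4 and 5, and 0 to 4 with 1 array left out; the cause was not tested. The replicate block gave 12 and 10 lower members after 5 exposures against naive and against 1 exposure, as without it, but not the same genes. Under it Cpr64Ac lost both calls (limma adjusted p = 0.0742 and 0.0648), and Lcp65Ac against naive (0.0327) and TwdlL against 1 exposure (0.00475) were gained. It also ended the calls of reb and obst-B against 1 exposure. Cpr72Ec was called lower after 1 exposure (0.0357) and higher after 5 exposures than after 1 (0.0165), beside Cpr100A (0.0118), Cpr92F (0.0257) and Cpr49Ae (0.0332) after 1. Same-numbered arrays correlated at -0.24 to 0.52 once group means were removed, so whether the numbers pair the samples is not settled. For 7 of 18 arrays set against another group the same number was the best match, a hint from the data and not the design. Over all probe sets, calls numbered 329 to 507, 428 to 769 and 608 to 898 for 1 exposure against naive, 5 against naive and 5 against 1, beside 412, 590 and 792. Signal over background limits the 17 dim members, for which no detection calls were used here.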
